A study of Mus musculus with 30 samples.

Results

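The BCL2 family decides whether the outer mitochondrial membrane stays closed or is opened to release cytochrome c, and 10 of its genes were followed here in AML12 cells, a mouse hepatocyte line. The members were given as a list of symbols (Bcl2, Bcl2l1, Mcl1, Bax, Bak1, Bid, Bad, Bcl2l11, Bbc3 and Pmaip1) and were found by matching the Ensembl identifiers of the count tables, without their version, to mouse gene symbols. All 10 were present among the 49089 identifiers, and all 10 passed the filter on low counts that left 11368 genes for testing. Pro-survival proteins of the family (Bcl2, Bcl-xL from Bcl2l1, and Mcl1) hold the pore-forming effectors Bax and Bak1 in check. BH3-only proteins (Bid, Bad, Bim from Bcl2l11, Puma from Bbc3 and Noxa from Pmaip1) antagonise the pro-survival proteins or activate the effectors directly. In hepatocytes the mitochondrial step also carries death receptor signals, because Bid is cut by caspase-8 and its fragment acts on mitochondria, and forkhead factors of the FoxO class, which insulin restrains through Akt, are known activators of Bcl2l11 and Bbc3.

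The 30 RNA-seq samples formed 8 groups. Control cells (NS siRNA), FoxK1 KD and FoxK2 KD cells (siRNA against 1 of the forkhead factors FoxK1 and FoxK2) and DKD cells (siRNA against both) were each analysed at basal and after insulin stimulation (100 nM, 6 h), all after serum starvation. Each group had 4 replicates, except 3 each for Control and DKD cells with insulin. The knockdowns were transient and partial, and the labels do not say whether replicates were separate cultures, so that the p-values measure the spread between these samples, which may be technical. Basal samples are labelled with 0 h of stimulation, whereas the methods mention mock-treated cells.

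Gene counts summed to 2141460 in the shallowest and 5668270 in the deepest library. The knockdown was visible in every library: Foxk1 was at 27.4 to 42.0 CPM (read counts scaled to the TMM-adjusted library size) in FoxK1 KD and 42.9 to 49.7 in DKD against 66.2 to 88.4 in Control cells at basal, and Foxk2 at 42.9 to 50.6 in FoxK2 KD and 41.9 to 54.7 in DKD against 132.7 to 149.7. Among hepatocyte markers, Hnf4a (89.6 to 151.6 CPM), Krt8, Krt18 and Ttr were counted in every sample, whereas Alb, which marks mature hepatocytes, had a median of only 6.8 CPM. Apoa1 and Fgb were at a median of 0.4 CPM. Of the markers of other cells, Epcam, Adgre1, Pdgfrb and Lrat were at 0 in all 30 samples, and Krt19 (323.2 to 753.3 CPM) and Sox9, known from bile duct cells, were high in all. Other macrophage or leukocyte markers were counted: Csf1r (1.9 to 21.4 CPM, median 9.1) and Ptprc (0.3 to 2.8) in every sample, and Cd68 at a median of 0.8. The library labelled Control basal replicate 1 stood apart, and so did the libraries of 3 groups: Gm13668 and Gm42939 were at 0.3 CPM or below in all Control, FoxK1 KD and FoxK2 KD basal libraries, whereas Gm42939 was at 4.4 CPM or above in every library of the other 5 groups. No label names a batch. DKD against Control at basal, the effect of insulin in Control, FoxK1 KD and FoxK2 KD cells and the difference between the insulin effects in DKD and Control compare libraries across this divide, so that for them it and the condition cannot be told apart. In the differences of FoxK1 KD and FoxK2 KD from Control, both insulin effects cross it. The remaining comparisons lie within 1 side of it.

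Control basal replicate 1 touched most members. It had the highest level of the 4 Control basal samples in 7 of the 10 genes and the highest of all 30 samples in 6 (Mcl1, Bax, Bid, Bad, Bbc3 and Pmaip1). Over all tested genes, it was the highest of the 4 in 37.3%. Bax was at 245.3 CPM in it against 85.8, 115.6 and 123.2 in the other Control basal samples, and Bbc3 at 80.0 against 37.5, 47.4 and 33.0. It also differed from its group in the relation of counts to GC content (Spearman's rho across genes 0.17 against -0.29 to -0.25). The calls of members that use the Control basal group are therefore given with and without it.

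**Figure D1:**
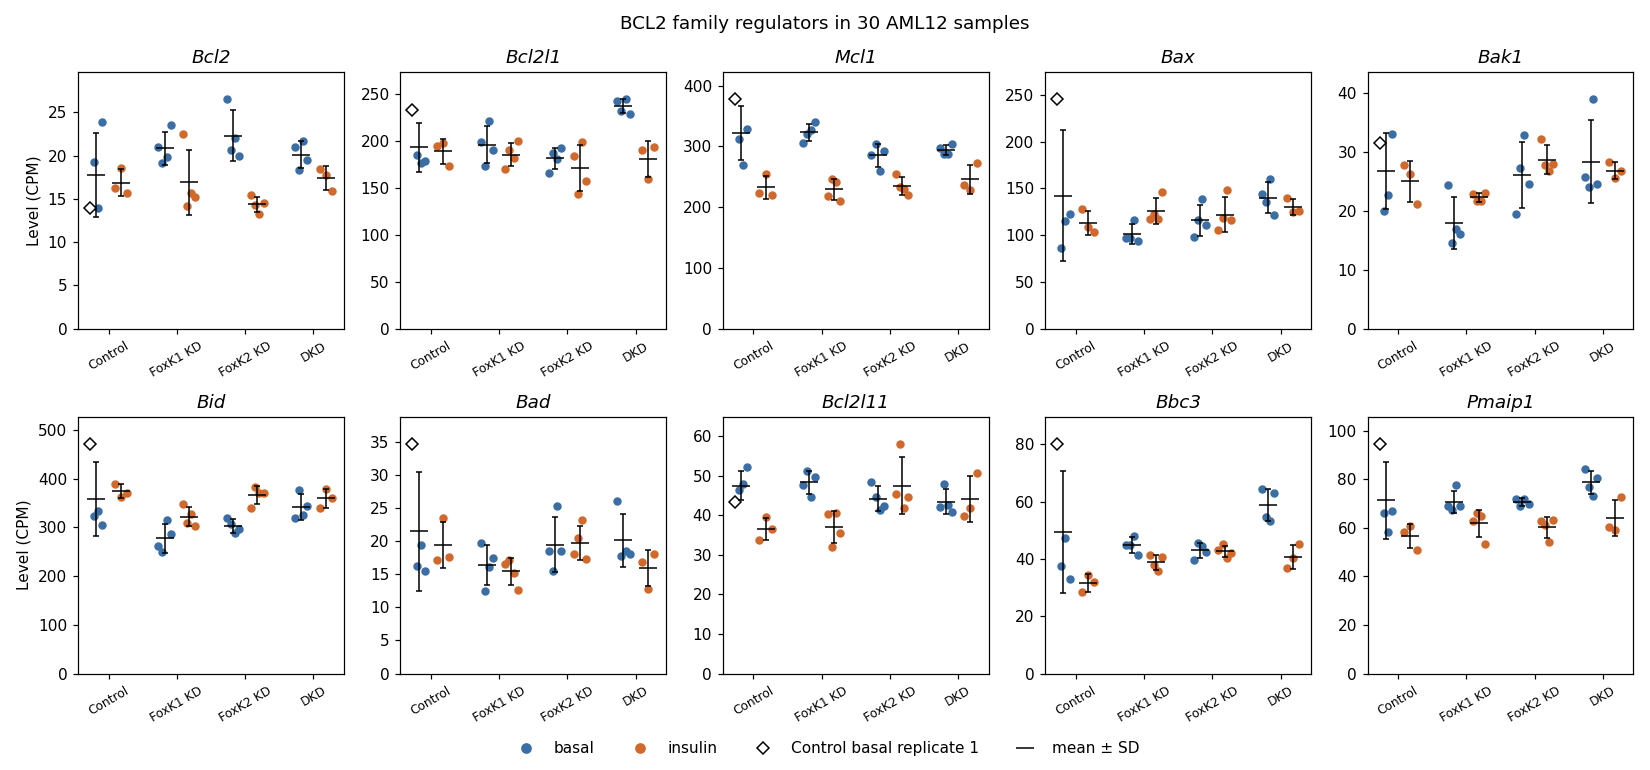
Levels of the 10 genes in CPM in each of 30 samples, by genotype, at basal (blue) and after insulin (orange), with group mean ± SD. The open diamond is Control basal replicate 1, which lies above all 29 other samples for Mcl1, Bax, Bid, Bad, Bbc3 and Pmaip1.

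Per exon length, Bid, Mcl1 and Bax were the most abundant members and Bcl2 the least. In Control cells at basal, Bid was at 101 ± 21.3 CPM per kb of exon (SD, n = 4), Mcl1 at 94.2 ± 13.0 and Bax at 90.4 ± 44.7, and the samples of these 3 neighbours overlapped. Bcl2l1 followed at 42.1 ± 5.76, below every sample of Bax. Pmaip1 (26.1 ± 5.82) and Bbc3 (23.3 ± 9.98) overlapped with each other, as did Bak1 (11.1 ± 2.68) with Bad (8.38 ± 3.49), and Bad with Bcl2l11 (5.92 ± 0.462). Bcl2, the founding pro-survival gene, was at 1.94 ± 0.528 CPM per kb, below every sample of the 9 others. Among pro-survival genes the order Mcl1, Bcl2l1, Bcl2 held in all 8 groups, and between the effectors Bax stood above Bak1 in all 8. Summed per length, the 3 pro-survival genes reached 138 ± 17.9 CPM per kb in Control cells at basal and 111 ± 7.89 (n = 3) after insulin, as a description of levels. These sums were 140 ± 6.00 and 109 ± 5.09 in FoxK1 KD, 126 ± 6.45 and 108 ± 7.84 in FoxK2 KD (n = 4 each), and 140 ± 2.26 (n = 4) and 113 ± 10.4 (n = 3) in DKD cells. Exon length was the union of annotated exons, which is longer than most transcripts, and gene counts do not separate the isoforms of Bcl2l1, Mcl1 or Bcl2l11.

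**Figure D2:**
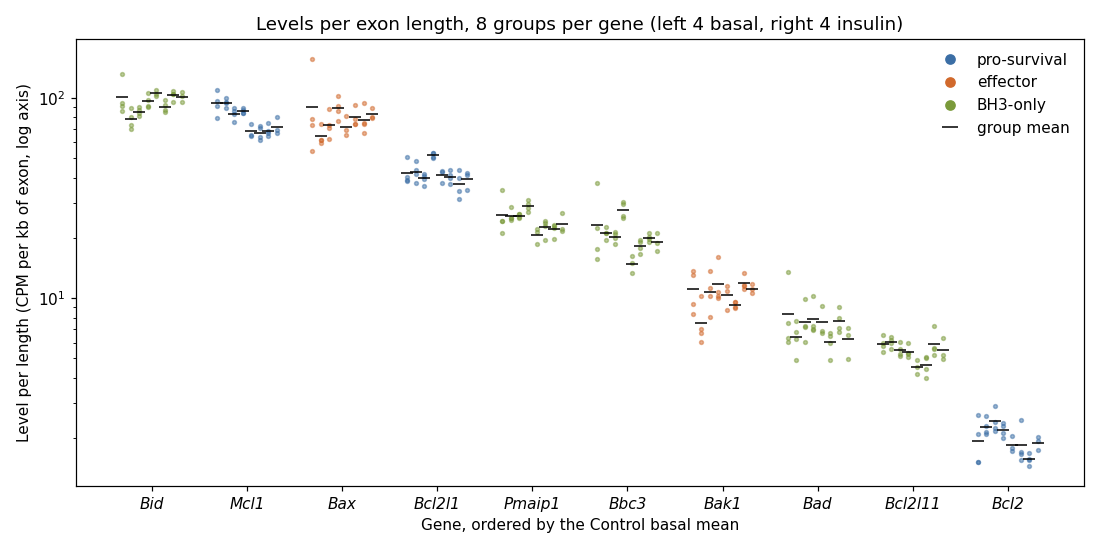
Levels per exon length (CPM per kb, log axis) of the 10 genes, ordered by their Control basal mean, with 1 point per sample and a black bar for each group mean (left 4 basal, right 4 insulin, each ordered as Control, then FoxK1 KD, then FoxK2 KD, then DKD). Bid, Mcl1 and Bax lie highest and Bcl2 lowest in every group.

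With all samples, 2 to 4 members were called with insulin in each genotype and 0 to 2 in each knockdown at basal, and those called lower with insulin were pro-survival and BH3-only genes. Those counts became 3 to 4 and 0 to 4 without Control basal replicate 1, so that the order of the 2 kinds of comparison rests on that library. A gene was called at an adjusted p below 0.05 (edgeR's quasi-likelihood test over all 11368 genes, with Benjamini-Hochberg adjustment). Insulin lowered 4 of 10 members in Control cells (Mcl1, Bcl2l11, Bbc3 and Pmaip1), where 25.4% of all genes were called and 13.1% were called lower. The median log2 fold change was -0.22 over the members and -0.01 over all genes. Without Control basal replicate 1, Mcl1 and Bcl2l11 were called lower and Bid higher (25.5% of all genes called). For FoxK1 KD cells 2 of 10 were called (31.6% of all genes), both lower (Mcl1 and Bcl2l11, against 15.4% of all genes lower). In FoxK2 KD cells 3 of 10 were called (28.1% of all genes), with Bcl2 and Mcl1 lower (13.7% of all genes) and Bid higher (14.4%). In DKD cells 3 of 10 were called (16.3% of all genes), all lower (Bcl2l1, Mcl1 and Bbc3, against 7.99% of all genes lower). At the thresholds of the study, an adjusted p below 0.25 and a fold change above 1.5, 1 of 10 members was called in Control (12% of all genes), 0 in FoxK1 KD (12.9%), 1 in FoxK2 KD (10.7%) and 0 in DKD cells (8.49%). Over 10 members, these shares do not set the family apart from the background.

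At basal, knockdown of FoxK1 gave 2 of 10 called (8.09% of all genes), Bak1 and Bid, both lower (4.71% of all genes were lower), and 0 without Control basal replicate 1 (edgeR, 3.59% of all genes), where 2 had an unadjusted p below 0.05. In DKD cells 1 of 10 was called (21.1% of all genes), Bcl2l1, which was higher (10.3% of all genes were higher), and without Control basal replicate 1 this became 4 of 10 (27% of all genes). In FoxK2 KD cells 0 of 10 were called by edgeR, and 0 by DESeq2 and limma-voom (0.378% of all genes), while 3 had an unadjusted p below 0.05. After insulin, 0 of 10 members were called in FoxK1 KD (3.59% of all genes), FoxK2 KD (0.0264%) or DKD cells (1.21%) against Control by edgeR, DESeq2 or limma-voom, with 1, 2 and 1 members at an unadjusted p below 0.05. At the study's adjusted p of 0.25, 3, 0 and 2 members were called in FoxK1 KD, FoxK2 KD and DKD cells at basal (26.6%, 3.59% and 43.6% of all genes), and 0 in any of the 3 after insulin (15.1%, 0.238% and 6.66%). The median standard error over all genes was 0.13 to 0.15 on the log2 scale in these comparisons, so that small changes were not detectable with these samples.

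**Figure D3:**
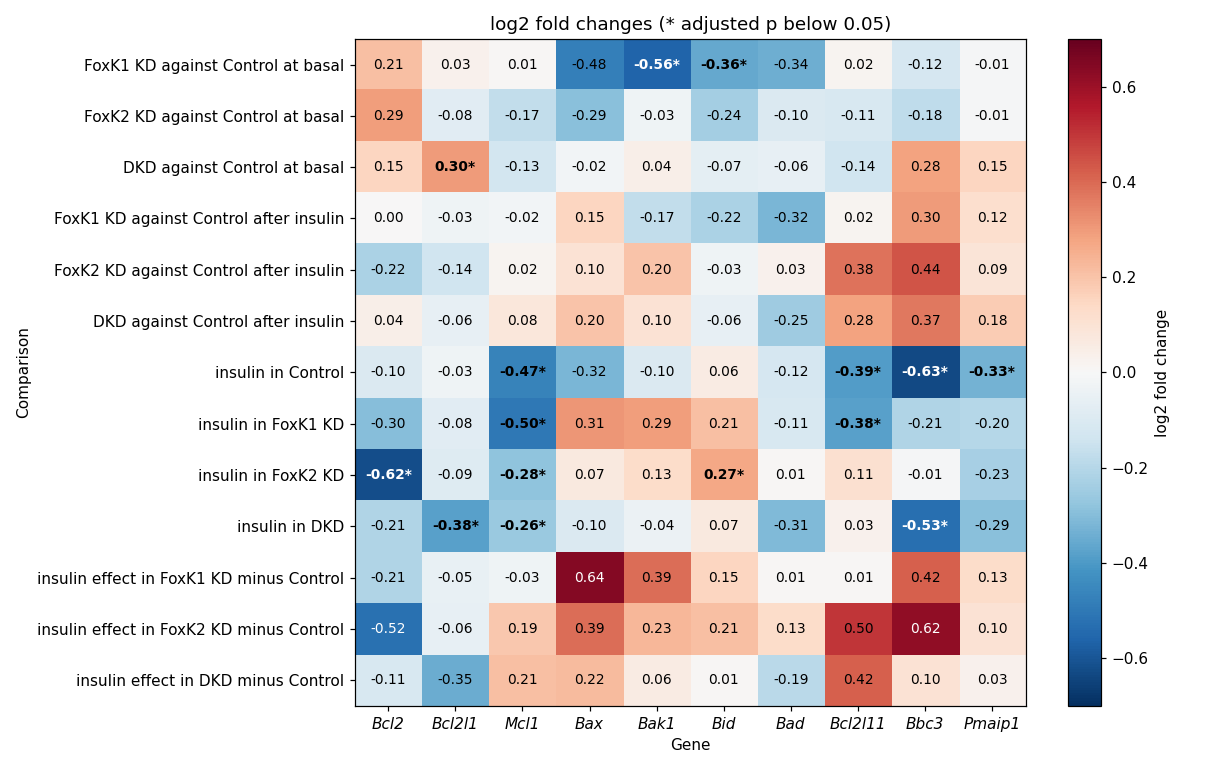
log2 fold change of each gene (columns) in each of 13 comparisons (rows), red for higher and blue for lower in the first-named group, with an asterisk and bold type where the adjusted p was below 0.05. The row of asterisks runs down the Mcl1 column through all 4 insulin comparisons, and no asterisk stands in the last 3 rows.

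Mcl1 (ENSMUSG00000038612.16, chromosome 3, 95658788 to 95663176, plus strand, GRCm38), which encodes a short-lived pro-survival protein, was the member called in most comparisons, 4 of 13. In Control cells it was at 377.4, 311.6, 269.7 and 329.1 CPM at basal and at 223.9, 253.8 and 220.1 after insulin. In FoxK1 KD cells it was at 305.5, 321.2, 326.8 and 339.8 at basal and at 218.7, 246.4, 241.3 and 210.8 after insulin. In FoxK2 KD cells the values were 285.2, 304.3, 260.2 and 292.3 at basal and 255.3, 233.8, 229.3 and 220.8 after insulin. In DKD cells they were 297.5, 288.0, 287.8 and 304.5 at basal and 235.9, 227.5 and 273.5 after insulin. All insulin samples thus lay below all basal samples in every genotype, a separation in either direction that 25% of all genes showed in Control, 31.9% in FoxK1 KD, 30% in FoxK2 KD and 28.7% in DKD. Its log2 fold change with insulin was -0.47 (SE 0.09, edgeR adjusted p = 0.000203) in Control and -0.50 (SE 0.08, edgeR adjusted p = 3.11e-05) in FoxK1 KD cells. It was -0.28 (SE 0.08, edgeR adjusted p = 0.011) in FoxK2 KD and -0.26 (SE 0.09, edgeR adjusted p = 0.0462) in DKD. Without Control basal replicate 1 the value in Control cells was -0.38 (edgeR adjusted p = 0.000781, and 1.03e-05 to 0.0393 over all alternatives). The call in Control, FoxK1 KD and FoxK2 KD cells held in all 30 fits that left out 1 sample and the call in DKD cells in 21 of 30. In DKD cells it was lost without any 1 of the 4 basal samples or without insulin replicate 1 or 2, among others, with values of -0.28 to -0.21 and adjusted p of 0.0504 to 0.199 in edgeR. The smaller change in FoxK2 KD and DKD than in Control cells was not a called difference: the difference of insulin effects was 0.19 (95% interval -0.05 to 0.43) for FoxK2 KD and 0.21 (-0.04 to 0.46) for DKD, and 0.10 and 0.12 without Control basal replicate 1. In bulk RNA, less Mcl1 RNA per cell and a smaller share of cells that express it cannot be told apart, here and for the other members.

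The group means of Mcl1 were most like those of Txndc16 (Pearson's r = 0.989), Gabpa (0.987) and Cep70 (0.982) among tested genes with a mean log2 CPM of at least 3. These correlations are over 8 group means that share their libraries and the divide between them, and serve as a description.

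Bcl2l1 (ENSMUSG00000007659.18, chromosome 2, 152780668 to 152831728, minus strand), the gene of Bcl-xL, a main survival factor of hepatocytes, was highest in DKD cells at basal. It was at 242.1, 232.4, 244.3 and 229.0 CPM there, against 232.5, 185.0, 176.9 and 178.4 in Control, 199.4, 173.3, 220.9 and 190.8 in FoxK1 KD and 166.4, 187.6, 181.1 and 192.1 in FoxK2 KD cells. The DKD samples overlapped with Control only through Control basal replicate 1. The log2 fold change of DKD against Control was 0.30 (SE 0.09, edgeR adjusted p = 0.0225), and 0.39 (SE 0.09) without that sample (edgeR adjusted p = 0.00147, and 0.00147 to 0.218 over all alternatives). The call was lost without Control basal replicate 2, 3 or 4 or DKD basal replicate 1 or 3, at 0.26 to 0.28 (edgeR adjusted p = 0.0575 to 0.0777). With an offset for GC content and length it was 0.14 (SE 0.07, edgeR adjusted p = 0.21). Insulin took Bcl2l1 down to 190.0, 159.0 and 193.9 CPM in DKD cells, without overlap with basal, a log2 fold change of -0.38 (SE 0.10, edgeR adjusted p = 0.0091). This comparison lies within 1 side of the library divide, and with the same offset it was -0.33 (SE 0.08, edgeR adjusted p = 0.00361). Without DKD insulin replicate 2 it was -0.30 (SE 0.11, edgeR adjusted p = 0.0848), and it was called in the other 29 fits that left out 1 sample. With the offset, Bcl2l1 was also called lower with insulin in FoxK1 KD (-0.25, SE 0.08, edgeR adjusted p = 0.0109) and FoxK2 KD cells (-0.21, SE 0.08, edgeR adjusted p = 0.029), where it was at -0.08 and -0.09 without the offset, uncalled. In Control cells the insulin samples (195.1, 198.2 and 173.2 CPM) overlapped with the basal samples. The log2 fold change there was -0.03 (95% interval -0.23 to 0.17), and 0.07 (SE 0.10) without Control basal replicate 1. The difference between the insulin effects in DKD and Control cells was -0.35 (SE 0.15, unadjusted p = 0.0205 and adjusted p = 0.229, both from edgeR), and -0.45 (SE 0.13, edgeR adjusted p = 0.0491) without Control basal replicate 1, where 3.15% of all genes were called, within 0.0491 to 0.471 over the fits that left out 1 sample.

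Bcl2 itself (ENSMUSG00000057329.7, chromosome 1, 106538178 to 106714274, minus strand), with 37 to 134 counts per sample, was called once. In FoxK2 KD cells it was at 26.5, 20.7, 22.0 and 20.0 CPM at basal and at 15.4, 14.3, 13.3 and 14.5 after insulin, without overlap. Its log2 fold change was -0.62 (SE 0.15, edgeR adjusted p = 0.00244), and the call held in all 30 fits that left out 1 sample. In the other genotypes its log2 fold change with insulin was -0.10 (95% interval -0.43 to 0.23, and -0.19 without Control basal replicate 1) in Control, -0.30 (-0.62 to 0.01) in FoxK1 KD and -0.21 (-0.53 to 0.12) in DKD cells. The difference between FoxK2 KD and Control cells in this effect was -0.52 (SE 0.23, unadjusted p = 0.0283 and adjusted p = 0.883, both from edgeR), and -0.43 (SE 0.22) without that sample.

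Among BH3-only genes, Bcl2l11 (Bim) and Bbc3 (Puma) are the classical forkhead targets. With all samples both were called lower with insulin in Control cells, as were Mcl1 and Pmaip1. The call of Bbc3 was lost without Control basal replicate 1 (edgeR adjusted p = 0.0579). Bcl2l11 and Bbc3 each hold the forkhead core GTAAACA, or its reverse complement TGTTTAC, in a RefSeq promoter window (250 bases before to 50 after a start site, GRCm38.p6). Windows were given for 9 of the 10 members (15 windows), and were searched on both strands for GTAAACA and ATAAACA, motifs that share their last 6 letters. A match was found in 2 windows, of these 2 members, and none was found in the windows of the other 7. Of all 32851 windows of this length, 7.97% hold either motif and 3.65% hold GTAAACA, and of 27025 genes 9.01% have a window with either. The 60 bases around each match are printed for these 2 genes because their response to insulin is described next, with the match in capitals. Whether the motif bears on that response was not tested. The Bcl2l11 stretch lies at chr2:128125788-128125847 on the plus strand, 250 to 191 bases upstream of a start, and GENCODE M21 annotates nothing there. The Bbc3 stretch lies at chr7:16310068-16310127 on the plus strand, 193 to 134 bases upstream of a start, and within an intron of a longer Bbc3 transcript.
Bcl2l11: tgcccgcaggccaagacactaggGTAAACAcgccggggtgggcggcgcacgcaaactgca
Bbc3: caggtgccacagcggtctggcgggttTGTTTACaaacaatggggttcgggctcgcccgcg

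Bcl2l11 (ENSMUSG00000027381.16, chromosome 2, 128126038 to 128162547, plus strand) was at 43.4, 46.5, 47.9 and 52.3 CPM in Control cells at basal and at 33.8, 39.5 and 36.5 after insulin. In FoxK1 KD cells it was at 47.7, 51.2, 44.7 and 49.8 at basal and at 40.3, 32.1, 40.6 and 35.6 after insulin. Both genotypes thus had all insulin samples below all basal samples. The log2 fold change was -0.39 (SE 0.12, edgeR adjusted p = 0.0122) in Control and -0.38 (SE 0.11, edgeR adjusted p = 0.00826) in FoxK1 KD cells. Without Control basal replicate 1, which was the lowest Control basal sample for this gene, the Control value was -0.42 (SE 0.12, edgeR adjusted p = 0.00643, and 0.00446 to 0.0888 over all alternatives), and without Control insulin replicate 1 it was -0.34 (SE 0.13, edgeR adjusted p = 0.0645). In FoxK2 KD cells Bcl2l11 was at 48.5, 44.7, 41.3 and 42.4 CPM at basal and at 45.4, 58.0, 41.9 and 44.7 after insulin. In DKD cells it was at 42.2, 48.0, 42.6 and 40.8 at basal and at 39.8, 41.8 and 50.8 after insulin. In these last genotypes basal and insulin samples overlapped, and the log2 fold changes were 0.11 (95% interval -0.09 to 0.31) and 0.03 (-0.19 to 0.26). The difference from the Control insulin effect was 0.50 (SE 0.15, unadjusted p = 0.00286 and adjusted p = 0.883, both from edgeR) for FoxK2 KD and 0.42 (SE 0.16, unadjusted p = 0.0147 and adjusted p = 0.197, both from edgeR) for DKD. These differences were 0.53 and 0.46 without Control basal replicate 1 (edgeR adjusted p = 0.972 and 0.113). For FoxK1 KD it was 0.01 (95% interval -0.30 to 0.32). After insulin, every FoxK2 KD and DKD sample lay above every Control sample (7.27% and 17.2% of all genes did not overlap in either direction), with log2 fold changes against Control of 0.38 (SE 0.12, edgeR adjusted p = 0.454) and 0.28 (SE 0.12, edgeR adjusted p = 0.314).

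Bbc3 (ENSMUSG00000002083.13, chromosome 7, 16308393 to 16318205, plus strand), which is also a target of p53, was called lower with insulin in Control and DKD cells. In Control cells it was at 80.0, 37.5, 47.4 and 33.0 CPM at basal and at 28.5, 34.5 and 31.8 after insulin, so that the groups overlapped. Its log2 fold change was -0.63 (SE 0.17, edgeR adjusted p = 0.00687), which became -0.31 (SE 0.12, edgeR adjusted p = 0.0579) without Control basal replicate 1, within 6.69e-05 to 0.236 over all alternatives. In DKD cells it was at 64.3, 54.7, 53.2 and 62.9 at basal and at 36.8, 40.2 and 45.1 after insulin, without overlap. The log2 fold change was -0.53 (SE 0.17, edgeR adjusted p = 0.0256), and -0.31 (SE 0.15, edgeR adjusted p = 0.137) with the offset for GC content and length. The call was also lost without DKD basal replicate 1 or 4 or DKD insulin replicate 1 or 2, at -0.53 to -0.46 (edgeR adjusted p = 0.0596 to 0.12). In FoxK2 KD cells it was at 39.5, 45.4, 44.5 and 42.4 at basal and at 43.2, 45.1, 40.3 and 41.9 after insulin, a log2 fold change of -0.01 (95% interval -0.31 to 0.29). In FoxK1 KD cells it was at 45.0, 44.9, 48.0 and 41.5 at basal and at 41.4, 37.7, 35.6 and 40.5 after insulin, a log2 fold change of -0.21 (-0.53 to 0.11), and with the offset it was called at -0.41 (SE 0.14, edgeR adjusted p = 0.027). After insulin, Bbc3 was higher in every FoxK1 KD, FoxK2 KD and DKD sample than in every Control sample, whereas Bcl2l11 in FoxK1 KD overlapped with Control. Of all genes, 7.27% did not overlap in either direction for FoxK2 KD and 17.2% for DKD, and the share for FoxK1 KD is not given here. Its log2 fold changes against Control after insulin were 0.30 in FoxK1 KD, 0.44 in FoxK2 KD and 0.37 in DKD cells. None was called (edgeR adjusted p = 0.409, 0.741 and 0.407), and with the offset they were 0.15, 0.29 and 0.21.

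Pmaip1 (ENSMUSG00000024521.7, chromosome 18, 66458533 to 66465565, plus strand), whose product Noxa binds Mcl1, was lower on average after insulin in all 4 genotypes. Its log2 fold change was -0.33 (SE 0.12, edgeR adjusted p = 0.0371) in Control cells, where it was at 94.4, 66.0, 58.1 and 66.8 CPM at basal and at 58.3, 60.7 and 50.9 after insulin. Without Control basal replicate 1 that value was -0.17 (SE 0.10, edgeR adjusted p = 0.225, and 0.00949 to 0.557 over all alternatives), and without any 1 of the 3 insulin samples it was -0.36 to -0.25 (edgeR adjusted p = 0.053 to 0.189). In FoxK1 KD, FoxK2 KD and DKD cells it was -0.20, -0.23 and -0.29 (edgeR adjusted p = 0.174, 0.108 and 0.0776), and in these 3 genotypes the insulin samples did not overlap with the basal samples. Without Control basal replicate 1, Pmaip1 was called lower with insulin in FoxK2 KD (-0.23, edgeR adjusted p = 0.0307) and DKD cells (-0.29, edgeR adjusted p = 0.0198). It stayed uncalled in FoxK1 KD cells (-0.21, edgeR adjusted p = 0.0607). With the offset it was called in DKD cells, at -0.38 (SE 0.12, edgeR adjusted p = 0.0267).

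Bid (ENSMUSG00000004446.12, chromosome 6, 120891930 to 120916853, minus strand) was the BH3-only gene that was called higher with insulin, in FoxK2 KD cells. It was at 319.8, 307.1, 287.4 and 297.4 CPM at basal and at 339.7, 382.6, 371.0 and 369.8 after insulin there, without overlap (log2 fold change 0.27, SE 0.09, edgeR adjusted p = 0.0288). Leaving out basal replicate 2, 3 or 4 or insulin replicate 2, 3 or 4 of FoxK2 KD gave 0.25 to 0.27 (edgeR adjusted p = 0.0509 to 0.0796). In the other genotypes the log2 fold change was 0.06 to 0.21, uncalled. Without Control basal replicate 1 it was called at 0.22 (SE 0.08, edgeR adjusted p = 0.0399) in Control cells and at 0.20 (SE 0.07, edgeR adjusted p = 0.0309) in FoxK1 KD cells. With the offset for GC content and length and all samples, it was 0.08 and 0.13 in these genotypes, uncalled. At basal, Bid was at 261.1, 248.5, 314.8 and 285.8 CPM in FoxK1 KD against 470.4, 322.8, 334.4 and 305.2 in Control cells. The log2 fold change of -0.36 (SE 0.09, edgeR adjusted p = 0.0144) became -0.20 (SE 0.08, edgeR adjusted p = 0.147) without Control basal replicate 1, within 0.00226 to 0.22 over all alternatives. Without FoxK1 KD basal replicate 2 it was -0.31 (SE 0.10, edgeR adjusted p = 0.074). After insulin, the log2 fold change of Bid in FoxK1 KD against Control cells was -0.22 (SE 0.10, edgeR adjusted p = 0.261). Bid shares 17.69% of its exon bases with Bcl2l13 on the opposite strand, and the strand setting of the counting is not given in the sources used here, so that reads of the shared part cannot be told apart. Bad (ENSMUSG00000024959.13, chromosome 19, 6941861 to 6951899, plus strand), whose product Akt phosphorylates and 14-3-3 proteins retain, was called in 0 of 13 comparisons by edgeR, and had an unadjusted p below 0.05 in 0. It had 33 to 122 counts per sample, and its standard errors of 0.19 to 0.31 on the log2 scale left changes of moderate size undetectable. It shares 20.48% of its exon bases with Gpr137 on the opposite strand.

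**Figure D4:**
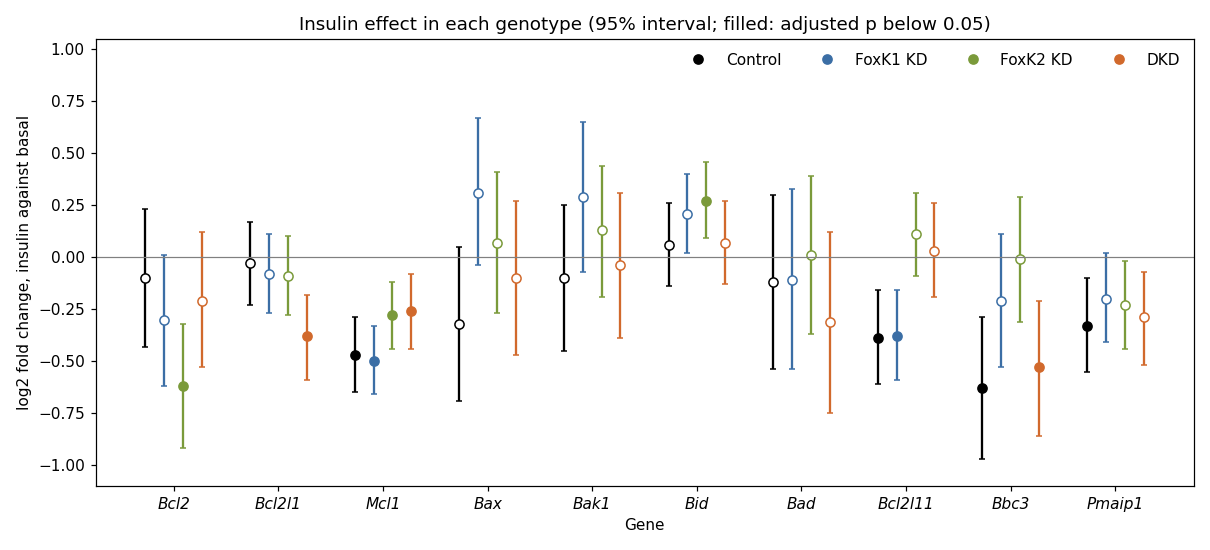
log2 fold change of insulin against basal for the 10 genes in each of the 4 genotypes, with 95% intervals (1.96 SE on each side), filled where the adjusted p was below 0.05. Mcl1 is filled in all 4 genotypes, Bcl2l11 in Control and FoxK1 KD, Bbc3 in Control and DKD, and Bcl2l1 in DKD alone.

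The effectors Bax (ENSMUSG00000003873.11, chromosome 7, 45461697 to 45466898, minus strand) and Bak1 (ENSMUSG00000057789.13, chromosome 17, 27019810 to 27029009, minus strand) were called once between them with all samples. Bak1 was at 24.4, 14.5, 16.9 and 16.1 CPM in FoxK1 KD and at 31.5, 20.0, 22.6 and 33.0 in Control cells at basal, groups that overlapped through 1 FoxK1 KD sample. Its log2 fold change was -0.56 (SE 0.17, edgeR adjusted p = 0.0335), and -0.49 (SE 0.17, edgeR adjusted p = 0.12) without Control basal replicate 1, within 0.00401 to 0.218 over all alternatives. It was -0.52 to -0.43 without Control basal replicate 4 or FoxK1 KD basal replicate 2, 3 or 4 (edgeR adjusted p = 0.0865 to 0.124). Bak1 shares up to 18.16% of its exon bases with an annotated copy of Ggnbp1 on the opposite strand, and Bax 12.18% with Gm45808 on its own strand. Bax was at 97.5, 97.0, 116.4 and 93.9 CPM in FoxK1 KD cells at basal, with a log2 fold change against Control of -0.48 (SE 0.17, edgeR adjusted p = 0.0799) that became -0.09 (SE 0.12) without Control basal replicate 1. After insulin Bax was at 117.1, 123.2, 117.3 and 145.9 CPM in FoxK1 KD cells, above all basal samples of that genotype, with a log2 fold change of 0.31 (SE 0.18, edgeR adjusted p = 0.186). This change was called without Control basal replicate 1, at 0.30 (SE 0.12, edgeR adjusted p = 0.0393). It was also called with only the groups compared, at 0.31 (SE 0.09, edgeR adjusted p = 0.00888). With the offset for GC content and length it was 0.06 (SE 0.14, edgeR adjusted p = 0.768).

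In the comparison of DKD with Control cells at basal, Control basal replicate 1 altered the calls of 3 members. With all samples, Bax had a log2 fold change of -0.02 (SE 0.17), Bbc3 of 0.28 (SE 0.15) and Pmaip1 of 0.15 (SE 0.10), and Bcl2l1 alone was called. Without that sample, 4 of 10 members were called, all higher in DKD, where 27% of all genes were called. Bbc3 was then at 0.60 (SE 0.11, edgeR adjusted p = 8.08e-05, and 8.08e-05 to 0.694 over all alternatives), Bax at 0.36 (SE 0.12, edgeR adjusted p = 0.0258, and 0.0258 to 0.999) and Pmaip1 at 0.30 (SE 0.09, edgeR adjusted p = 0.0112, and 0.00062 to 0.71). The fourth was Bcl2l1. With all Control samples, 0 of 10 members had DKD and Control samples that did not overlap. With that sample set aside, all 4 DKD samples of Bbc3 (53.2 to 64.3 CPM) lay above the other 3 Control samples (33.0 to 47.4). So did those of Pmaip1 (73.1 to 84.1 against 58.1 to 66.8) and Bcl2l1 (229.0 to 244.3 against 176.9 to 185.0), whereas those of Bax overlapped (121.2 to 160.6 against 85.8 to 123.2). The share of all genes that separate in this way was not counted, so these separations are a description only. In the same comparison the log2 fold change followed GC content across genes (Spearman's rho 0.47 over 11346 genes, which are not independent replicates). The longest transcripts of Bbc3 and Bax are GC-rich (65.2% and 63.5%), that of Bcl2l1 is at 55.9% and that of Pmaip1 at 42.1%. With both the offset for GC content and length and that sample left out, Pmaip1 was called at 0.46 (SE 0.09, edgeR adjusted p = 0.00062). Bbc3 was then at 0.30 (SE 0.12, edgeR adjusted p = 0.0636), Bcl2l1 at 0.19 (SE 0.07, edgeR adjusted p = 0.0718) and Bax at 0.03 (SE 0.10). The part of GC content in these results was not tested beyond this offset.

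**Figure D5:**
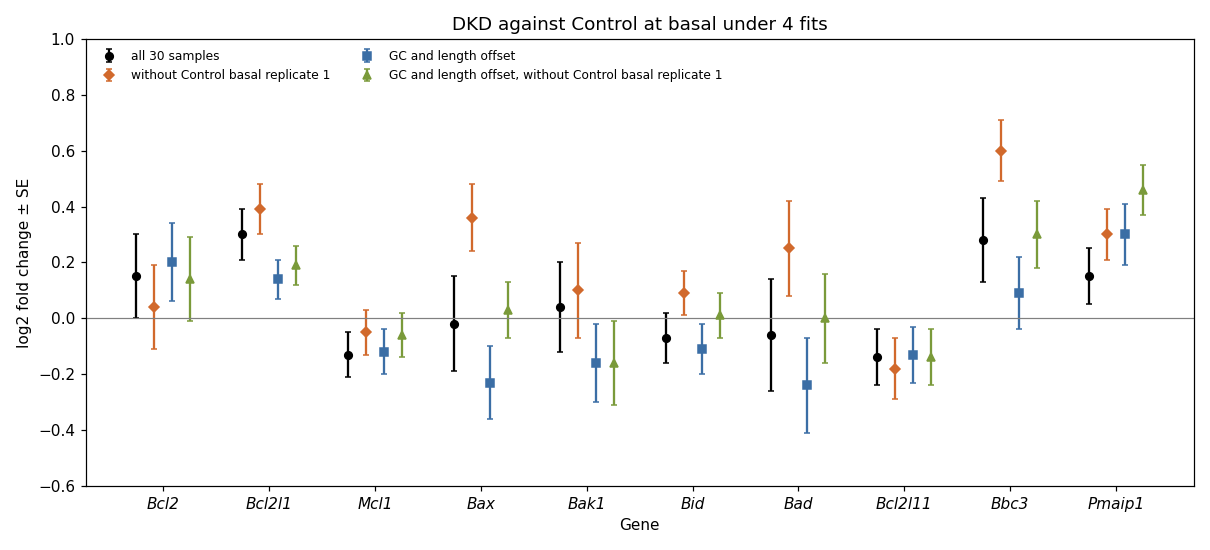
log2 fold change ± SE of DKD against Control at basal for the 10 genes in 4 fits: all 30 samples, without Control basal replicate 1, with an offset for GC content and length, and with both. Bbc3 moves between 0.09 and 0.60 and Bax between -0.23 and 0.36 across the fits, whereas Mcl1 stays between -0.13 and -0.05 and Bcl2l11 between -0.18 and -0.13.

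The difference between the insulin effects of each knockdown and Control was called for 0 of 10 members in FoxK1 KD (0% of all genes), FoxK2 KD (0%) and DKD cells (1.54%) by edgeR and limma-voom, and for 0 at the thresholds of the study (1.55%, 0% and 4.04% of all genes). DESeq2 called 0 of 10 for FoxK2 KD and DKD and 0 of the 4 members that it gave an adjusted p for FoxK1 KD, where it called 24 genes. At an unadjusted p below 0.05 in edgeR there were 1 (Bax), 3 (Bcl2, Bcl2l11 and Bbc3) and 2 (Bcl2l1 and Bcl2l11), chosen after their values were seen. For Bbc3 in FoxK2 KD cells the difference was 0.62 (SE 0.23, edgeR adjusted p = 0.883), and 0.29 (SE 0.16) without Control basal replicate 1. For Bax in FoxK1 KD cells it was 0.64 (SE 0.26, edgeR adjusted p = 0.309), and 0.24 (SE 0.17) without that sample. With a filter of at least 1 count in any sample it was called, at 0.62 (edgeR adjusted p = 0.00703), the lowest over all alternatives.

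Genes around the family were taken from lists of the pathway, read against the shares of all genes called, which were 3.39% higher and 4.71% lower in FoxK1 KD at basal, 10.3% and 10.8% in DKD at basal, and 12.4% and 13.1% with insulin in Control cells. Median log2 fold changes of the lists ranged from -0.30 (VDAC channels) to 0.21 (death receptor pathway) in DKD cells at basal, against 0.00 over all genes, from -0.15 (apoptosome and caspases) to 0.21 (IAP inhibitors) in FoxK1 KD cells at basal, against -0.01, and from -0.21 (IAP inhibitors) to 0.07 (regulators of the family) with insulin in Control cells, against -0.01. Of 7 tested other BCL2 family genes (of 17 listed), 1 rose and 1 fell with insulin in Control cells. Bmf, a BH3-only gene, fell (log2 fold change -0.68, SE 0.12, edgeR adjusted p = 5.8e-05), and Becn1, which carries a BH3 motif and acts in autophagy, rose (0.41, SE 0.11, edgeR adjusted p = 0.00375). In DKD cells at basal, Bnip3, an outer membrane protein induced by hypoxia, fell (-0.91, SE 0.15, edgeR adjusted p = 5.96e-05) and Becn1 rose (0.34, SE 0.10, edgeR adjusted p = 0.0131). With FoxK1 KD at basal 0 rose and 2 fell, Bcl2l12 (-0.74, SE 0.21) and Bnip3 (-0.45, SE 0.14), and neither was called without Control basal replicate 1 (edgeR adjusted p = 0.175 and 0.116).

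Downstream of the mitochondria, 12 of 13 apoptosome and caspase genes were tested. In DKD cells at basal Cycs, which encodes cytochrome c, fell (-0.55, SE 0.17, edgeR adjusted p = 0.0162). With FoxK1 KD at basal Apaf1, the apoptosome scaffold, rose (0.29, SE 0.09) and Aifm1 fell (-0.24, SE 0.08), and neither was called without Control basal replicate 1 (edgeR adjusted p = 0.114 and 0.238). Of 6 tested IAP genes, inhibitors of caspases (of 7 listed), 1 was called in FoxK1 KD cells at basal, Birc5 (-0.36, SE 0.11, edgeR adjusted p = 0.0389, and 0.204 without that sample), and 0 in DKD at basal or with insulin in Control cells. Without that sample, 2 IAP genes were called lower in each of the last comparisons.

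Of 9 tested death receptor genes (of 11 listed), 3 rose and 0 fell in DKD cells at basal, led by the receptor Fas (0.69, SE 0.14, edgeR adjusted p = 0.00043) and the adaptor Tradd (0.35, SE 0.11, edgeR adjusted p = 0.0262). With insulin in Control cells 3 rose and 0 fell, led by Casp8, the caspase that cuts Bid (0.42, SE 0.09, edgeR adjusted p = 0.000427), and Traf2 (0.39, SE 0.11, edgeR adjusted p = 0.00703). With FoxK1 KD at basal 1 rose, Tnfrsf10b (0.28, SE 0.09, edgeR adjusted p = 0.0394). Of the 3 VDAC channel genes of the outer membrane, 0 were called in FoxK1 KD at basal, and Vdac3 (-0.36, SE 0.09) and Vdac1 (-0.30, SE 0.08) fell in DKD at basal (edgeR adjusted p = 0.00392 and 0.00465). Vdac1 also fell with insulin in Control cells (-0.28, SE 0.08, edgeR adjusted p = 0.0115).

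Of 25 tested regulators of the family (of 27 listed), 4 rose and 4 fell with insulin in Control cells. The largest were the rises of Trib3, a pseudokinase that binds Akt (1.55, SE 0.16, edgeR adjusted p = 4.4e-09), and of the stress factor Atf4 (0.59, SE 0.12, edgeR adjusted p = 0.000242), and the falls of Foxo4 (-0.72, SE 0.14, edgeR adjusted p = 0.000322) and of the kinase Pim3 (-0.43, SE 0.14, edgeR adjusted p = 0.0169). In DKD cells at basal 2 rose and 0 fell, Pim3 (0.52, SE 0.12, edgeR adjusted p = 0.00164) and Trp53, which encodes p53 (0.26, SE 0.08, edgeR adjusted p = 0.0239). Without Control basal replicate 1 the counts there were 5 and 2. With FoxK1 KD at basal 0 rose and 6 fell, led by Trib3 (-0.93, SE 0.19, edgeR adjusted p = 0.00206) and E2f1 (-0.64, SE 0.19, edgeR adjusted p = 0.0352), and without that sample 1 rose and 1 fell. E2f1 was then at -0.21 (SE 0.13) and Trib3 at -0.89 (SE 0.21, edgeR adjusted p = 0.0074). The genes named from these lists in DKD at basal and with insulin in Control cells were all still called without it, with edgeR adjusted p of at most 0.0194 and 0.0398. They were not examined with the offset for GC content and length, and both comparisons cross the divide between libraries.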

How the data were processed

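RNA-seq gene counts of 30 AML12 samples, grouped by their labels, were used. The authors deposited raw counts per Ensembl gene without normalization. The submitters' processing notes name CASAVA 1.8, STAR 2.4.2a, featureCounts and GRCm38.p4, and the strand setting is not given in the sources used here. Of 49089 identifiers, 48435 were found in GENCODE M21 (GRCm38), which gave symbols, exon lengths and GC content.

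Genes were filtered with filterByExpr, scaled by TMM and fitted over the 8 groups with edgeR 4.0.16 in R 4.3.3 (glmQLFit, glmQLFTest, Benjamini-Hochberg adjustment, threshold 0.05). The fit was also run on simulated counts, with a filter of at least 1 count in any sample. These counts held no relation to GC content and no library that stood apart, so that the run does not bear on either. An SE is the size of the log2 fold change over the root of its F statistic, and 95% intervals are 1.96 SE on each side. Alternatives were DESeq2 1.42.0, limma-voom 3.58.1, other count filters, only the groups compared, a replicate block, an offset for GC content and length (known for 99.8% of tested genes), the thresholds of the study, and leaving out each sample. The offset without Control basal replicate 1 was added after seeing the data. The members and lists were chosen with earlier results of these data known. All 10 members were named in every comparison, and from each other list up to 2 genes called higher and 2 called lower, with the largest changes, in FoxK1 KD and DKD at basal and with insulin in Control. No library copied another of its own group, since in 42 pairs of samples within groups the chi-square over its degrees of freedom was at least 1.75. Pairs from different groups were not compared in this way. Some genes of the apoptosome and caspase list are not reported here.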

Additional observations from a re-analysis of the deposited data

Results flagged for a closer look

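Among the 60 combinations of a member and a group of 4 samples, 5 had a sample whose gap to the nearest of the others, divided by the range of the group, exceeded Dixon's critical value of 0.829, where chance gives about 1 in 20. Bcl2l1 was at 232.5 CPM in Control basal replicate 1 against 176.9 to 185.0 in the others. Bax was at 116.4 CPM in FoxK1 KD basal replicate 3 against 93.9 to 97.5, and Pmaip1 at 77.6 CPM in the same library against 67.3 to 68.8. Bak1 was at 38.9 CPM in DKD basal replicate 3 against 24.1 to 25.8. Bad was at 26.1 CPM in DKD basal replicate 1 against 17.7 to 18.5.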

How the results depend on the processing

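A log2 fold change counted as reversed where its sign differed from the edgeR fit of all samples and either fit called it. Of the log2 fold changes of single members, 1 reversed: Bax in DKD against Control at basal was called at 0.36 without Control basal replicate 1, within -0.2 to 0.36 over the fits that left out 1 sample. Others changed sign while called in neither fit, such as Bax with insulin in Control cells (-0.32, and 0.06 without that sample). In the number of members called, fitting only the groups compared gave 0 in FoxK1 KD and 0 in DKD at basal, and with insulin 1 in Control and 4 in FoxK1 KD cells. The offset for GC content and length, with or without a replicate block, gave 1 in FoxK1 KD and 0 in DKD at basal and 4 with insulin in FoxK1 KD cells. That offset without Control basal replicate 1 gave 0 in FoxK1 KD at basal, 1 in FoxK1 KD after insulin (Bid), 2 with insulin in Control and 4 with insulin in FoxK1 KD cells. The thresholds of the study gave 2 in DKD at basal, and with insulin 1 in Control, 0 in FoxK1 KD, 1 in FoxK2 KD and 0 in DKD cells. A minimum of 1 count in any sample gave 1 for the difference in insulin effect between FoxK1 KD and Control (Bax). Leaving out 1 sample gave 0 to 3 in FoxK1 KD and 0 to 4 in DKD at basal, with insulin 2 to 5 in Control, 2 to 4 in FoxK1 KD, 2 to 4 in FoxK2 KD and 0 to 4 in DKD cells, and 0 to 1 for DKD against Control in the size of the insulin effect. The cause of these moves was not tested.

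Replicate numbers gave no sign of pairing: the deviations of 99 same-numbered pairs had a mean correlation of -0.013, with 8 pairs over 0.1. Of 30 samples, 5 correlated best with their own number. Trends of single libraries could hide a pairing, so that this check cannot exclude it. The replicate block gave 2 called members with insulin in DKD, where Mcl1 was lost, and changed no other call of a member in the tests without an offset.

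Over all genes, fitting only the groups compared took the number called from 920 to 46 in FoxK1 KD, from 43 to 1 in FoxK2 KD and from 2398 to 1299 in DKD at basal, from 138 to 40 in DKD after insulin, from 2890 to 1085 with insulin in Control, and from 175 to 32 in the difference between DKD and Control. The thresholds of the study gave 3028, 408 and 4952 at basal, 1717 (from 408), 27 (from 3) and 757 after insulin, 1367, 1463, 1211 and 965 with insulin in the 4 genotypes (from 2890, 3588, 3193 and 1853), and 176 (from 0) and 459 in the differences of FoxK1 KD and DKD. DESeq2 gave 83 in FoxK2 KD at basal, 10 after insulin and 24 in the FoxK1 KD difference, and a minimum of 1 count gave 238, 14 and 174 there, 31 in the FoxK2 KD difference and 359 in that of DKD. The offset gave 107 in FoxK2 KD at basal and 116 in the DKD difference (81 and 107 with the block), and without Control basal replicate 1 it gave 523 and 28 in FoxK1 KD and FoxK2 KD at basal and 865, 12 and 366 in the 3 knockdowns after insulin. With the offset, 40.7% of the genes called in FoxK1 KD after insulin were higher, against 52% without it, and in DKD after insulin 54.5% against 71.7% (60.5% in DESeq2). For FoxK2 KD at basal 69.7% were higher in limma-voom against 55.8%. Bcl2, Bad and Bak1, with under 200 counts in each sample, are the members that depth limits most.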
